A study of Macaca mulatta with 10 samples.

Results

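Oligodendrocytes wrap the axons of the brain in myelin, and 9 genes of that programme are described here across 5 nuclei of the monkey thalamus. They are MBP, MOBP, MAG, MOG, CNP, TF, CLDN11, UGT8 and OLIG2, chosen by symbol, and every probe set that the array annotation gives to exactly 1 of them was taken. This yielded 20 probe sets of the 22215 on the array that are not controls. MBP and TF had 4 each, MOG 3, MOBP, MAG and OLIG2 2 each, and CNP, CLDN11 and UGT8 1 each. Probe sets of 1 gene share their target, and all 20 share the same RNA extracts, so they are not replicates of a nucleus.

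RNA came from tissue punches of untreated adult rhesus monkeys (Macaca mulatta), biotin-labelled and hybridised to an Affymetrix array made for human transcripts. The 10 arrays comprise Ventral Thalamus, Centre Median, Anterior Thalamus, Pulvinar and Medial Thalamus, with replicates 1 and 2 of each. The labels give no strain, exact age or number of animals, and they do not say which ventral, medial or anterior nuclei a punch held. The study set the nuclei side by side to find genes particular to each. All levels below are log2(intensity + 1) of values normalised by the authors, and differences are on that log2 scale. With 2 arrays of a nucleus, the number of arrays limits the precision.

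Myelin is a stack of glial membrane held together by a few abundant proteins. MBP draws the cytoplasmic faces of the membrane together, and MOBP is a second basic protein of compact myelin. MAG sits on the innermost membrane, facing the axon, MOG on the outermost one, and CNP in the cytoplasmic channels that stay open. CLDN11 forms the tight junctions between myelin layers, UGT8 makes galactosylceramide, the chief myelin glycolipid, TF is the iron carrier transferrin, made in the brain by oligodendrocytes, and OLIG2 is a transcription factor of the whole lineage. Ventral thalamic nuclei are known for the thick myelinated sensory and cerebellar fibres that enter them. In punches of tissue, fewer cells of a type and less RNA per cell cannot be told apart.

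The arrays differed more by replicate number than by nucleus. With the nucleus accounted for, 23.4% of all probe sets were called higher and 30.6% lower in replicate 2 than in replicate 1 (limma, adjusted p under 0.05). The lowest intensity was 12 to 12.3 on replicate 1 arrays and 9.49 to 9.55 on replicate 2 arrays. Sex-linked transcripts differed within replicate 1: XIST, transcribed from the inactive X chromosome, stood at 6.70 to 7.22 in Ventral, Anterior and Medial Thalamus, against 8.96 in Centre Median and 9.60 in Pulvinar, and at 9.86 to 10.34 on all replicate 2 arrays. RPS4Y1, a gene of the Y chromosome, ran the other way, at 8.16 to 8.94 in those first 3 nuclei and 6.96 to 7.65 on the other 7 arrays. Calls are therefore counted in 2 fits, one that ignores the replicate number and one, called the blocked fit below, that takes it out as a block. The differences are the same in both. The SE and adjusted p of a single probe set are from the blocked fit unless stated. The block treats replicate 1 as 1 set, although its arrays differ in these transcripts, as RNA of different animals does. Calls are at an adjusted p under 0.05 over all 22215 probe sets.

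Ventral Thalamus had the highest mean for 16 of the 20 probe sets, and Medial Thalamus had the lowest for 14. These orders of means were not counted over all probe sets. The blocked F test over the 5 nuclei called 4 probe sets, those of MAG (216617_s_at), MOG (205989_s_at) and TF (203400_s_at and 214063_s_at), or 4 of 20 members where 0.23% of all probe sets were called. Their adjusted p were 0.0394, 0.0489, 0.0233 and 0.0225. Without the block limma called 0 members, with 3 at an unadjusted p under 0.05 (0.599% of all probe sets), and 0 of all 22215 probe sets. With the block 13 members had an unadjusted p under 0.05, against 8.59% of all probe sets. Centre Median had the second highest mean for 13 probe sets. Pulvinar had the lowest mean for 4 and Anterior Thalamus for 0.

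**Figure D1:**
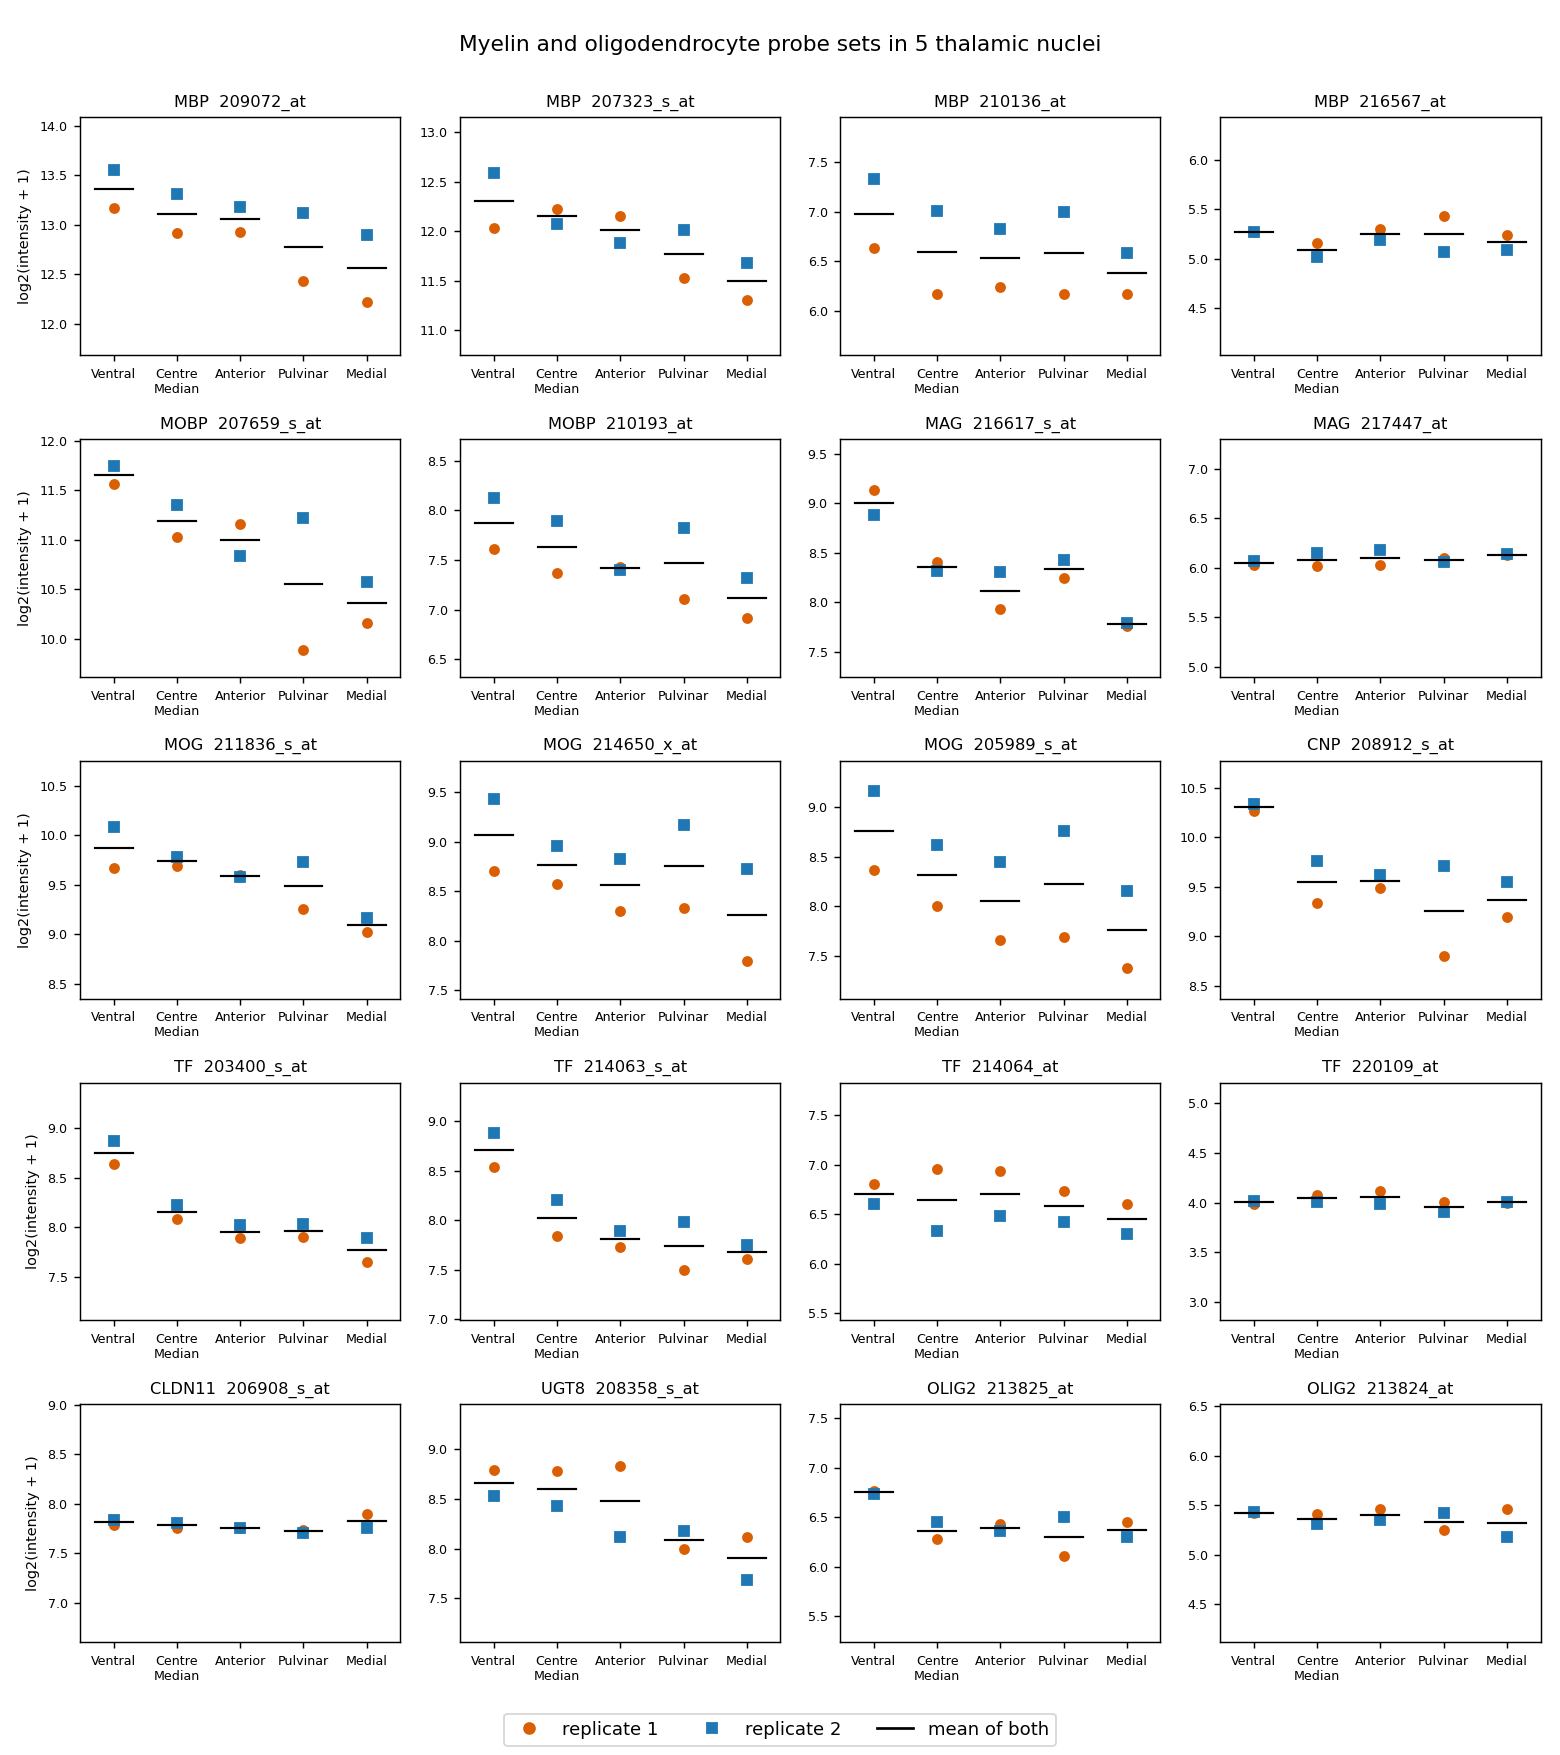
Level of each of the 20 probe sets as log2(intensity + 1) on the vertical axis, by nucleus, with circles for replicate 1, squares for replicate 2 and a line for their mean. The Ventral Thalamus arrays lie above the other 8 in 6 panels, for MOBP, MAG, CNP, TF (2 panels) and OLIG2, and CLDN11 is nearly flat.

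Ventral Thalamus was singled out because earlier results of these same data had placed the myelin genes highest there. The counts below describe that choice and are not independent support for it. Set against the mean of the other 4 nuclei, 18 of 20 probe sets lay higher in Ventral Thalamus, where 44% of all probe sets did. The median of the 20 was 0.45, where that of all probe sets was -0.017. The blocked fit called 5 of the 20 higher, where 0.257% of all probe sets were called higher, and 0 lower, where 0.0765% were. These were the 2 brighter probe sets of TF, 1 of 2 of MAG, MOG with 1 of 3 probe sets, and CNP. At an unadjusted p under 0.05 it held 14 of 20 higher, against 6.42% of all probe sets. Without the block 0 members were called, with 6 at an unadjusted p under 0.05 (0.77% of all probe sets), and every adjusted p of a member was 1. The SEs of the 5 called probe sets were 0.137 to 0.382 without the block, against 0.0957 to 0.146 with it. Both Ventral Thalamus arrays exceeded all 8 others for 6 of the 20 probe sets, where 1.5% of all probe sets had this order. Compared only within its own replicate set, Ventral Thalamus was the highest nucleus in both sets for 11 of 20, where 7% of all probe sets had this order.

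Without Ventral Thalamus replicate 1, and likewise without replicate 2, the 5 calls of the blocked fit were lost. Fewer of all probe sets were called in these fits as well. Each of these fits has 1 Ventral array, which is assumed to vary like the other nuclei. The 5 differences were 0.66 to 0.92 without replicate 1 and 0.68 to 1.05 without replicate 2. Without either Centre Median array, or without either Anterior Thalamus array, some of the 5 calls were lost, again with fewer of all probe sets called. A term for the replicate 1 arrays with high XIST and low RPS4Y1 left the same 5 calls. That fit called 123 of all probe sets, against 74 in the blocked fit. RNA quality moved with the nucleus: the actin control, whose 3' minus 5' signal rises with degraded or incompletely copied RNA, stood at 1.22 and 1.64 in Ventral Thalamus, against -0.09 to 0.46 in replicate 1 and 1.15 to 1.36 in replicate 2 of the other nuclei. When this control signal was added to the blocked fit, 0 members and 8 of all probe sets were called. The differences of the 5 were then 0.64 for MAG, 0.63 for MOG, 0.73 for CNP, and 0.78 and 1.04 for TF. Of the 20 members 18 lay above 0 in that fit, with a median of 0.51. For the 5 probe sets called in the blocked fit, the SEs were larger with the control signal added, 0.188 to 0.275 against 0.0957 to 0.146. The GAPDH control, read the same way, stood at 0.84 and 0.80 in Ventral Thalamus, against 0.24 to 0.53 in replicate 1 and 0.62 to 0.78 in replicate 2 of the other nuclei.

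**Figure D2:**
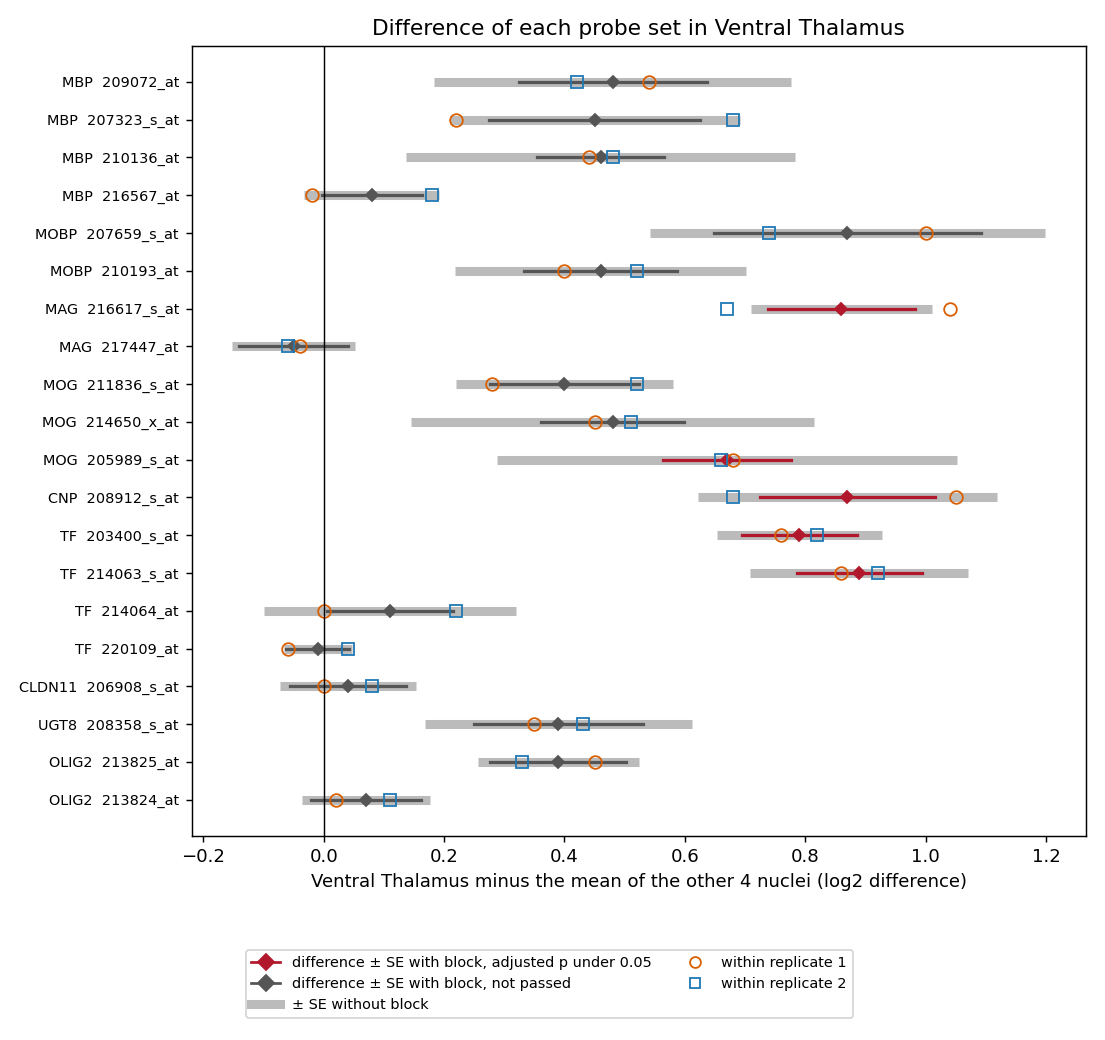
Log2 difference of Ventral Thalamus from the mean of the other 4 nuclei for each probe set. Diamonds and thin lines give the difference and its SE in the blocked fit, red where called, wide grey bars the SE without the block, and open symbols the difference within replicate 1 (circles) and replicate 2 (squares). The 5 called probe sets lie between 0.67 and 0.89, and TF 220109_at and MAG 217447_at lie just below 0.

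Of the proteins of compact myelin, MBP had the probe set 209072_at at 13.17 and 13.55 in Ventral Thalamus replicates 1 and 2, against 12.92 and 13.31 in Centre Median, 12.93 and 13.18 in Anterior Thalamus, 12.43 and 13.12 in Pulvinar, and 12.22 and 12.90 in Medial Thalamus. In each replicate set the Ventral array was the highest and the Medial array the lowest, but across sets the groups overlapped, since Ventral replicate 1 lay below Centre Median replicate 2. The difference of Ventral Thalamus from the rest was 0.48 (SE 0.156 with the block, adjusted p = 0.272).

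The probe set 207323_s_at of MBP read 12.03 and 12.59 in Ventral Thalamus, 12.23 and 12.07 in Centre Median, 12.15 and 11.88 in Anterior Thalamus, 11.53 and 12.01 in Pulvinar, and 11.31 and 11.68 in Medial Thalamus. Here Ventral replicate 1 lay below the replicate 1 arrays of Centre Median and Anterior Thalamus, and the difference was 0.22 within replicate 1 and 0.68 within replicate 2. The dim probe set 210136_at gave 6.63 and 7.33 in Ventral Thalamus, against 6.17 to 6.24 in replicate 1 and 6.58 to 7.01 in replicate 2 of the other nuclei. Its difference of 0.46 (SE 0.106 with the block) did not pass either (adjusted p = 0.11). The fourth, 216567_at, stayed between 5.02 and 5.43 on all 10 arrays.

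MOBP showed the widest range of nucleus means among the 20 probe sets, at 2.44-fold between Ventral and Medial Thalamus for 207659_s_at. That probe set stood at 11.56 and 11.74 in Ventral Thalamus, 11.03 and 11.35 in Centre Median, 11.16 and 10.84 in Anterior Thalamus, 9.89 and 11.22 in Pulvinar, and 10.16 and 10.57 in Medial Thalamus. Both Ventral arrays lay above the other 8. The difference from the rest, 0.87, had an SE of 0.222 with the block and did not pass (adjusted p = 0.149). The 2 Pulvinar arrays were further apart than the highest and lowest nucleus means. The other probe set, 210193_at, had the same nucleus on top in each set, at 7.61 and 8.13 against 6.91 to 7.43 in replicate 1 and 7.32 to 7.89 in replicate 2 of the other nuclei, with a difference of 0.46 (adjusted p = 0.172).

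MAG, the adhesion protein that faces the axon, set Ventral and Medial Thalamus apart from the other nuclei by its brighter probe set. Its probe set 216617_s_at stood at 9.13 and 8.88 in Ventral Thalamus, 8.40 and 8.31 in Centre Median, 7.93 and 8.30 in Anterior Thalamus, 8.24 and 8.43 in Pulvinar, and 7.76 and 7.79 in Medial Thalamus. Both Ventral arrays lay above, and both Medial arrays below, all others, while Centre Median, Pulvinar and Anterior Thalamus overlapped. Ventral Thalamus averaged 9.0 ± 0.17 (SD, n = 2) against 8.15 for the mean of the other nuclei, 1.81-fold higher (difference 0.86, SE 0.122 with the block, adjusted p = 0.0158). The second probe set, 217447_at, lay between 6.02 and 6.18 on all arrays and showed none of this order.

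MOG, on the outer face of the sheath, was measured by 3 probe sets with the same order at both ends, Ventral highest and Medial lowest. For 205989_s_at the levels were 8.36 and 9.16 in Ventral Thalamus, 8.0 and 8.62 in Centre Median, 7.66 and 8.44 in Anterior Thalamus, 7.69 and 8.76 in Pulvinar, and 7.37 and 8.15 in Medial Thalamus. The shift between replicates, 0.81 on average, exceeded the difference of Ventral Thalamus from the rest, and the groups overlapped across sets. Within the sets the difference was 0.68 and 0.66, and MOG by this probe set was called in the blocked fit (difference 0.67, SE 0.107, adjusted p = 0.0249) although its SE without the block was 0.382. It was not called with quantile normalisation and the block (adjusted p = 0.0631), and it was called in 5 of the 10 blocked fits that leave out 1 array, with adjusted p of 0.0218 to 0.234.

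The 2 other MOG probe sets did not pass in that comparison. For 211836_s_at the Ventral Thalamus arrays read 9.67 and 10.08, against 9.69 and 9.78 in Centre Median, 9.60 and 9.58 in Anterior Thalamus, 9.25 and 9.73 in Pulvinar, and 9.02 and 9.16 in Medial Thalamus. Its Ventral and Centre Median arrays overlapped, and its Medial arrays were the 2 lowest of 10. The difference was 0.40 (adjusted p = 0.242), and that of 214650_x_at, a kind of probe set that may also bind related sequences, was 0.48 (adjusted p = 0.138). Taking 1 probe set per gene by highest mean keeps 211836_s_at, so with that choice MOG was not called in Ventral Thalamus against the rest.

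CNP, an enzyme of non-compact myelin, stood at 10.26 and 10.34 in Ventral Thalamus, 9.34 and 9.76 in Centre Median, 9.49 and 9.62 in Anterior Thalamus, 8.80 and 9.71 in Pulvinar, and 9.19 and 9.55 in Medial Thalamus. Both Ventral arrays were above the 8 others, while the other 4 nuclei overlapped one another. CNP was 1.83-fold higher in Ventral Thalamus than in the rest (10.30 ± 0.06, SD, n = 2, against 9.43, SE 0.146 with the block, adjusted p = 0.028). It was not called with quantile normalisation and the block (0.73, adjusted p = 0.0934), and it was called in 4 of the 10 blocked fits that leave out 1 array, with adjusted p of 0.01 to 0.393. Its lowest mean was in Pulvinar, at 9.25 ± 0.64, and not in Medial Thalamus.

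TF had the smallest adjusted p of the 9 genes, with both of its brighter probe sets called. The first, 203400_s_at, read 8.64 and 8.87 in Ventral Thalamus, 8.08 and 8.22 in Centre Median, 7.89 and 8.02 in Anterior Thalamus, 7.90 and 8.03 in Pulvinar, and 7.65 and 7.89 in Medial Thalamus. The second, 214063_s_at, read 8.54 and 8.88, against 7.84 and 8.21, 7.73 and 7.89, 7.50 and 7.98, and 7.61 and 7.75 in the same order of nuclei. Ventral arrays did not overlap the others in either. The differences from the rest were 0.79 (SE 0.0957, adjusted p = 0.0068) and 0.89 (SE 0.104, adjusted p = 0.00588) with the block, or 1.73-fold and 1.85-fold. The 2 remaining TF probe sets did not share this: 214064_at lay at 6.30 to 6.96 and 220109_at, close to the lowest intensities on the arrays, at 3.90 to 4.12, with differences of 0.11 and -0.01.

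Because transferrin is also a product of the choroid plexus in some mammals, markers of that tissue were read beside it, and TTR is named after its values were seen. TTR, the defining choroid plexus protein transthyretin, stood at 12.19 in Medial Thalamus replicate 2 and at 7.17 to 8.41 on the other 9 arrays, with 7.53 and 7.28 in Ventral Thalamus. The array with the high TTR read 7.89 and 7.75 for the brighter TF probe sets, the lowest of replicate 2 in both cases. The intensities of the 7 choroid plexus markers summed to 1316 and 1891 in Ventral Thalamus, against 1192 to 1621 in replicate 1 and 1829 to 6532 in replicate 2 of the other nuclei. Whether choroid plexus had a part in the TF values was not tested.

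UGT8, the galactolipid enzyme, gave 8.79 and 8.53 in Ventral Thalamus, 8.78 and 8.43 in Centre Median, 8.83 and 8.12 in Anterior Thalamus, 8.0 and 8.18 in Pulvinar, and 8.12 and 7.68 in Medial Thalamus. Ventral, Centre Median and Anterior Thalamus overlapped, and the difference of Ventral Thalamus from the rest was 0.39 (SE 0.14 with the block, adjusted p = 0.318). UGT8 was lower in replicate 2 than in replicate 1 (difference -0.32, adjusted p = 0.0302 with the nucleus accounted for).

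OLIG2 and CLDN11 were not called in either fit. The OLIG2 probe set 213825_at read 6.77 and 6.74 in Ventral Thalamus, 6.28 and 6.45 in Centre Median, 6.43 and 6.36 in Anterior Thalamus, 6.11 and 6.5 in Pulvinar, and 6.45 and 6.30 in Medial Thalamus. Both Ventral arrays lay above the others, and the difference of 0.39 did not pass (SE 0.113 with the block, adjusted p = 0.2). The second OLIG2 probe set lay at 5.18 to 5.46. CLDN11 stayed between 7.71 and 7.90 on all 10 arrays, with 7.79 and 7.84 in Ventral Thalamus and a difference of 0.04 (SE 0.0965, adjusted p = 0.937). It is the only one of the 9 genes that had no probe set with a difference of 0.39 or more. The 8 markers of meninges and fibroblasts summed to an intensity of 4320 and 5556 in Ventral Thalamus, against 3604 to 4526 in replicate 1 and 4752 to 6945 in replicate 2 of the other nuclei. Whether the human probes bind the rhesus transcripts of the flat probe sets was not tested.

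Medial Thalamus stood at the other end. Against the mean of the other nuclei 18 of 20 probe sets lay lower, where 50% of all probe sets lay above 0. The median of the 20 was -0.41, where that of all probe sets was 0. This comparison shares its arrays with that of Ventral Thalamus, so the 2 are not separate results. The blocked fit called 0 members, where 0.0585% of all probe sets were called lower, with 12 at an unadjusted p under 0.05, all lower (5.58% of all probe sets), and a smallest adjusted p of 0.0563 for MAG 216617_s_at. limma without the block also called 0, with 5 at an unadjusted p under 0.05 (0.459% of all probe sets lower). Within replicate sets Medial Thalamus was the lowest nucleus in both for 9 of 20 probe sets, covering MBP, MOBP, MAG, MOG and TF, where 5.21% of all probe sets had this order. Both Medial arrays lay below the other 8 for MAG 216617_s_at and MOG 211836_s_at, where 0.806% of all probe sets did. The differences of MOBP 207659_s_at, the largest, were -0.75 within replicate 1 and -0.72 within replicate 2. Those of MAG were -0.66 and -0.70, and those of UGT8 -0.48 and -0.63. Markers of other cells also differed in Medial Thalamus, and their part in the myelin values was not tested. The neuronal list had a median of -0.33 there, with GAD1, which makes the transmitter GABA, called lower (difference -1.06, adjusted p = 0.033 with the block). GFAP differed by 1.12 (adjusted p = 0.0629), and the choroid plexus and meningeal lists had medians of 0.22 and 0.20. The 2 Medial arrays were unlike in these lists. The choroid plexus list summed to 1192 in replicate 1, the lowest of that set, and to 6532 in replicate 2, the highest. The meningeal list summed to 3830 in replicate 1 and to 6945 in replicate 2, the highest of its set. GAD1 and GFAP are named here after their values were seen.

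Set directly against Medial Thalamus, Ventral Thalamus was higher for 7 of 20 probe sets in the blocked fit, where 0.558% of all probe sets were called higher. The 7 were MAG 216617_s_at, all 3 of MOG, CNP, and the brighter pair of TF. MAG differed 2.34-fold (difference 1.23, SE 0.154, adjusted p = 0.00531), and MOG 205989_s_at 2.00-fold (SE 0.135, adjusted p = 0.00856). TF differed by 0.98 and 1.02 (adjusted p = 0.00484 and 0.0064) and CNP by 0.93 (adjusted p = 0.04). MOBP 207659_s_at had the largest difference, 1.28, with an SE of 0.281 and did not pass (adjusted p = 0.0595). MBP 209072_at, at 0.79, and UGT8, at 0.76, did not pass either (adjusted p = 0.0896 and 0.0703). Without the block 0 members were called and 9 had an unadjusted p under 0.05 (0.891% of all probe sets). The count of 7 was lower without either array of Ventral, Medial or Anterior Thalamus or of Centre Median, and higher without either Pulvinar array. It was 4 with quantile normalisation and the block, and 0 with the actin covariate. It was 11 with the XIST and RPS4Y1 term, which added MBP 210136_at, both MOBP probe sets and UGT8. Counts over all probe sets in these fits are not given here for this comparison. A change in the members thus cannot be told from one of the whole array.

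Against the 3 nuclei in between, the blocked fit called 0 of 20 members in Ventral Thalamus, where 0.009% of all probe sets were called higher against Anterior Thalamus, 0.099% against Centre Median and 0.0045% against Pulvinar. At an unadjusted p under 0.05 it held 10, 7 and 13 of 20, against 5.36%, 4.33% and 3% of all probe sets. TF 214063_s_at was nearest to the threshold in each, differing by 0.90 from Anterior Thalamus (adjusted p = 0.0829), by 0.68 from Centre Median (0.0716) and by 0.97 from Pulvinar (0.0725). The median member difference was 0.33 from Anterior Thalamus, 0.24 from Centre Median and 0.43 from Pulvinar. limma without the block called 0 members in each, with 4, 4 and 6 at an unadjusted p under 0.05, against 0.369%, 0.702% and 0.293% of all probe sets.

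For Centre Median, Anterior Thalamus and Pulvinar against the mean of the rest, 14, 10 and 4 of 20 members lay above 0, where 50.8%, 50.5% and 49.8% of all probe sets did. The medians of the 20 members were 0.04, -0.01 and -0.07, and the blocked fit called 0 members in each, with smallest adjusted p of 0.808, 0.874 and 0.999, where it called 0.081% of all probe sets in Centre Median and 0% in Anterior Thalamus and Pulvinar. At an unadjusted p under 0.05 it held 1 higher in Centre Median, 1 lower in Anterior Thalamus and 4 lower in Pulvinar, against 3.4%, 2.71% and 1.46% of all probe sets. Pulvinar was the nucleus whose 2 arrays agreed least: for the 13 members whose mean level reached the median of all probe sets, the gap between its arrays departed from the average replicate shift by a median of 0.26. That departure was 0.10 in Ventral Thalamus, 0.09 in Centre Median, 0.23 in Anterior Thalamus and 0.08 in Medial Thalamus.

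**Figure D3:**
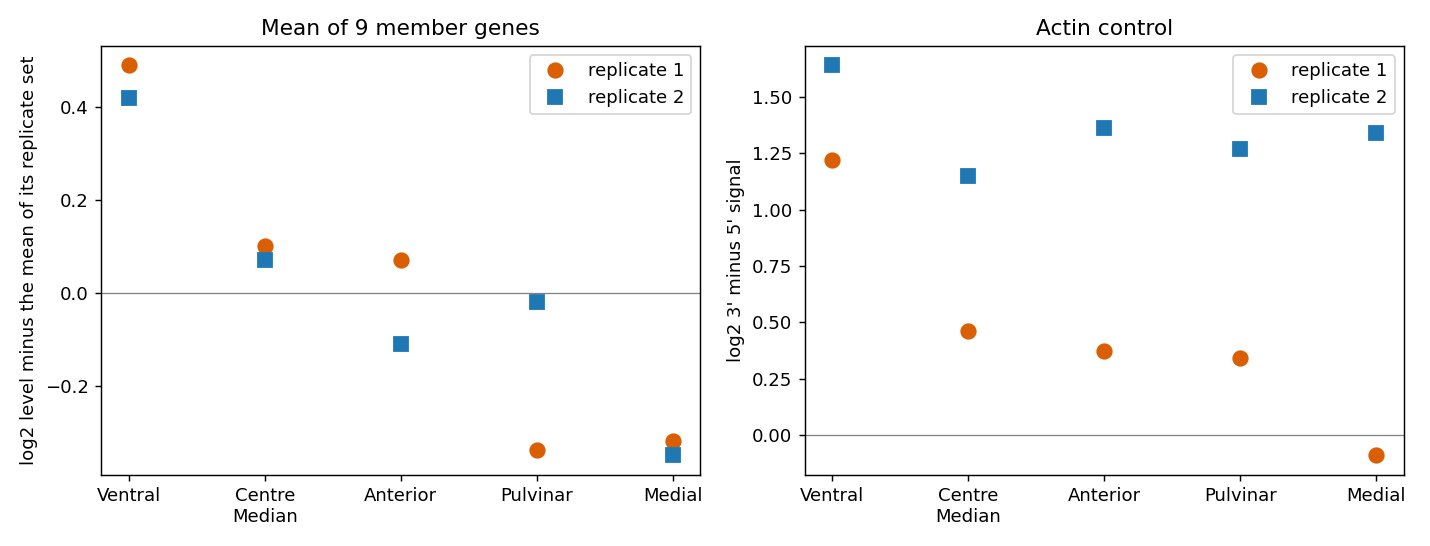
Left, the mean of the 9 genes on each array (1 probe set per gene, the one with the highest mean), as log2 level minus the mean of its own replicate set. Right, the actin control's log2 3' minus 5' signal. Circles are replicate 1 and squares replicate 2. Ventral Thalamus is highest in both panels in each replicate set (0.49 and 0.42 on the left, 1.22 and 1.64 on the right), and the Pulvinar arrays are apart on the left (-0.34 and -0.02).

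Averaged over the 9 genes and centred within each replicate set, the arrays of Ventral Thalamus stood at 0.49 and 0.42, those of Centre Median at 0.10 and 0.07, of Anterior Thalamus at 0.07 and -0.11, of Pulvinar at -0.34 and -0.02, and of Medial Thalamus at -0.32 and -0.35. The actin signal, also highest in Ventral Thalamus, was -0.09 and 1.34 in Medial Thalamus, the lowest of all 10 arrays in replicate 1, and 1.15 to 1.36 in replicate 2 of the other 3 nuclei. Its part in the low Medial values was not tested. After centring, each member was set beside the mean of the other 8 genes over the 10 arrays, as a description of points that share extracts and scaling. Pearson's r was 0.937 for MOBP 207659_s_at, 0.934 for MBP 209072_at and 0.918 for TF 214063_s_at. For CNP it was 0.897, for MOG 211836_s_at 0.873, for UGT8 0.857, for MAG 216617_s_at 0.804 and for OLIG2 213825_at 0.797. CLDN11 had 0.0843, MBP 216567_at 0.0128, TF 220109_at 0.143 and MAG 217447_at -0.676.

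Probe sets of 1 gene also differed in how they moved between replicates. The blocked fit called 7 of 20 members higher and 2 lower in replicate 2, against 23.4% and 30.6% of all probe sets. MOG 205989_s_at and 214650_x_at were higher by 0.81 and 0.68 (adjusted p = 1.12e-05 and 9.05e-05), whereas MOG 211836_s_at differed by 0.22 (adjusted p = 0.0766). MBP 210136_at was higher by 0.67 and 209072_at by 0.48, with 207323_s_at at 0.20. TF 214063_s_at was higher by 0.30 (adjusted p = 0.00939) and TF 214064_at lower (difference -0.39, adjusted p = 0.00196). Probe sets of the same gene thus gave unequal replicate shifts, a difference that was not tested, while the order of Ventral over Medial Thalamus held in both sets for each of the MOG and MBP probe sets named in this paragraph.

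Further genes of the lineage were read from lists. The 9 other myelin proteins measured lay higher in Ventral Thalamus in all 9 cases, with a median difference of 0.44 where that over all genes was -0.01, and 0 were called in either fit, with 5 at an unadjusted p under 0.05 with the block. Of 21 other genes of mature oligodendrocytes 17 lay higher, with a median of 0.30, and the blocked fit called 1. That gene was GSN, the actin-severing protein gelsolin, at 10.19 and 10.43 in Ventral Thalamus, against 8.88 to 9.57 in replicate 1 and 9.51 to 9.85 in replicate 2 of the other nuclei (difference 0.87, SE 0.14, adjusted p = 0.0263).

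All 5 measured transcription factors of the lineage lay higher in Ventral Thalamus, and all 5 had an unadjusted p under 0.05 with the block, where 6.42% of all probe sets were higher at that level, but 0 were called in either fit. They are named after their values were seen. SOX10, which drives myelin genes, differed by 0.33 (adjusted p = 0.232), MYRF, needed for myelin gene expression in mature cells, by 0.41 (0.264), and NKX2-2, which promotes differentiation of precursors, by 0.55 (0.102). ST18 differed by 0.40 (0.467) and ZNF536 by 0.36 (0.224). In replicate 1 Ventral Thalamus lay below Centre Median for ST18 (7.90 against 8.28) and for ZNF536 (7.96 against 8.07). Ventral Thalamus was the highest nucleus in both replicate sets for the other 3. Genes of precursors lay higher in 5 of 8 cases with a median of 0.16, and genes of lipid synthesis in 7 of 12 with a median of 0.03, with 0 called in either list and in either fit. At an unadjusted p under 0.05 with the block, 2 precursor genes were higher and 0 lower, and 2 lipid genes were higher and 2 lower, the last being HMGCS1 (-0.52) and SC5D (-0.31), named after their values were seen. UGT8, at 0.39, thus lay above the median of the other lipid enzymes, a difference that was not tested.

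**Figure D4:**
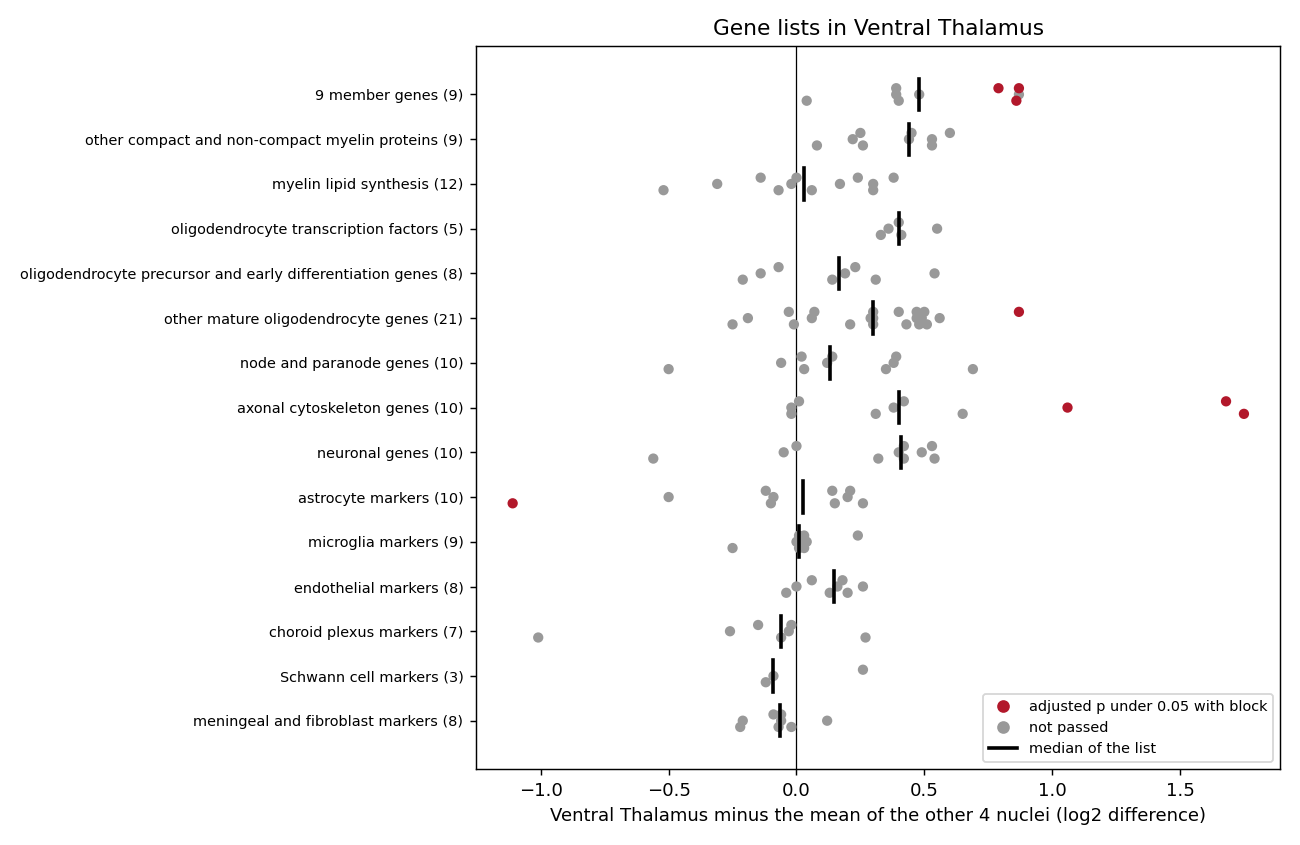
Log2 difference of Ventral Thalamus from the mean of the other 4 nuclei for each gene of the lists (numbers in brackets are genes measured), 1 probe set per gene, red where called in the blocked fit, with a bar at the list's median. Genes of mature oligodendrocytes and of axons lie mostly right of 0, as do neuronal and endothelial genes. Those of choroid plexus and meninges lie mostly near 0 or left of it, with 1 choroid plexus gene at 0.27.

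Markers of other cells moved too, and their part in the myelin differences was not tested. Among 10 genes of the axonal cytoskeleton 8 lay higher in Ventral Thalamus, with a median of 0.40, and the blocked fit called NEFM, NEFH and NEFL, the neurofilament subunits, by 1.68, 1.75 and 1.06 (adjusted p = 0.0068, 0.0107 and 0.031). Their list's summed intensity was 34350 and 40320 in Ventral Thalamus, against 24610 to 29490 in replicate 1 and 21680 to 26650 in replicate 2 of the other nuclei. Of 10 neuronal genes 8 lay higher (median 0.41, 0 called), with a summed intensity of 23150 and 28990 in Ventral Thalamus, against 17520 to 22290 in replicate 1 and 17940 to 23490 in replicate 2 of the other nuclei, and of 10 genes of nodes and paranodes 8 did (median 0.13, 0 called). Astrocyte markers lay higher in 5 of 10 (median 0.03), with GFAP, the astrocyte filament, called lower at 10.08 and 9.99 in Ventral Thalamus, against 10.17 to 11.25 in replicate 1 and 10.56 to 12.44 in replicate 2 of the other nuclei (difference -1.11, adjusted p = 0.0475). The astrocyte list summed to 9682 and 12430 in Ventral Thalamus, against 7782 to 10490 in replicate 1 and 12310 to 16470 in replicate 2 of the other nuclei. Without the block GSN, the 3 neurofilament genes and GFAP were not called (adjusted p = 1 for each). Microglia markers had a median of 0.01, choroid plexus markers -0.06, endothelial markers 0.15, Schwann cell markers, 3 of them, -0.09 and meningeal markers -0.07, with 0 called in each.

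The genes whose centred profile was most like the mean of the 9, over 10 arrays and 7208 genes at or above the median level, were ATP2C1 and KLHL2 (Pearson's r 0.965 each), FBXW7 (0.963), FBXO7 (0.961) and the probe set annotated to FOLH1B (0.955). GOLGA7, ELOVL6, ZCCHC24, BACE1 and PPP1R3C followed at 0.951 to 0.94. ATP2C1 is a calcium pump of the Golgi, FBXW7 and FBXO7 are substrate adaptors of ubiquitin ligases, ELOVL6 is a fatty acid elongase, and BACE1 is the protease that cuts the amyloid precursor and neuregulin. Their differences of Ventral Thalamus from the rest were 0.25 to 0.78, and none of the 10 was called in either fit, with FBXW7 nearest (0.78, adjusted p = 0.0523 with the block). The 5 least like it were TNFRSF25, RNF24, GEMIN4, DNAAF1 and NOVA1, at -0.925 to -0.903. These values describe likeness on arrays that share extracts, and no test was made of them.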

How the data were processed

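RNA of 10 tissue punches was hybridised to an Affymetrix array for human genes, per the labels. The authors deposited intensities on a linear scale, and the submitters' processing notes name RMA, with no version. RMA subtracts background, equalises the arrays' distributions and summarises probes. Whether all arrays were normalised together is not given in the sources used here, and no detection calls were used. Human probes can bind rhesus transcripts less well, which lowers levels and flattens differences. Of 22283 probe sets 68 controls were set aside. The platform annotation gave 19065 of the rest 1 symbol, 1043 several and 2107 none, for 11963 genes.

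From the intensities, log2(value + 1) was fitted for all 22215 probe sets with limma 3.58.1 in R 4.3.3 (lmFit, eBayes with a variance trend, two-sided moderated tests), with Benjamini-Hochberg adjustment within each comparison at 0.05. The planned fit had no block. Differences between replicates 2 and 1 correlated across probe sets at 0.75 to 0.828 in 10 of 10 pairs of nuclei, so the numbers were read as pairing samples, although the replicate 1 arrays are not alike in XIST and RPS4Y1, and a second fit that takes the number out as a block stands beside the first. The labels do not say which animals the replicates came from, so p-values measure the spread between these samples. In Ventral, Anterior and Medial Thalamus the replicates differed in XIST and RPS4Y1, as RNA of different animals does. For Centre Median and Pulvinar the spread may be technical. Figures were drawn with Python 3.11.15 and matplotlib 3.10.9. The scripts were tested on simulated data.

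Every probe set of the 9 genes is named. List genes are named if called in Ventral Thalamus, up to 4 per list, with the exceptions stated. The 10 genes most like the members' mean and the 5 least like it are named by Pearson's r. The 9 genes, the 14 lists and the focus on Ventral Thalamus were chosen with earlier results of these data known. Those results had placed the myelin genes highest in that nucleus. Alternatives were the pseudocount, quantile normalisation, a filter on low values, no variance trend, 1 probe set per gene, an actin covariate and leaving out each array. The XIST and RPS4Y1 term, and the low-value filter with the block, were added after seeing the data.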

Additional observations from a re-analysis of the deposited data

How the results depend on the processing

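Without the block, limma called 0 member probe sets in every comparison under all alternatives run (no pseudocount, a pseudocount of 16, quantile normalisation, the filter on low values, no variance trend, 1 probe set per gene, and each array left out). With the replicate block, which reads the numbers as pairs, 4 were called in the F test, 5 in Ventral Thalamus against the rest and 7 against Medial Thalamus. Adding quantile normalisation to the block gave 0, 3 and 4, and 1 probe set per gene gave 2, 3 and 4 of 9. The added XIST and RPS4Y1 term gave 4, 5 and 11, and 2 against Anterior Thalamus. The added filter with the block gave 4, 5 and 11, and 2 lower in Medial Thalamus against the rest, of 13 members kept. With the block and the actin covariate 0 were called in every comparison, with 18 of 20 Ventral Thalamus differences above 0 and a median of 0.51, against 0.45 without the covariate. Leaving out 1 array with the block gave 0 to 6 calls in the F test, 0 to 6 in Ventral Thalamus against the rest, 1 to 9 against Medial Thalamus, 0 to 2 against Anterior Thalamus, 0 to 1 against Centre Median and 0 to 2 against Pulvinar. The cause of these changes was not tested. Counts over all probe sets are given next only for the F test and for Ventral Thalamus against the rest. Over all probe sets the block called 51 in the F test and 74 in Ventral Thalamus, the actin covariate with the block 38 and 8, quantile normalisation with the block 24 and 29, 1 probe set per gene with the block 47 and 63, the XIST and RPS4Y1 term 87 and 123, and the filter with the block 64 and 95. With 1 array left out and the block these counts were 18 to 126 and 1 to 136.

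The recomputed differences of Ventral Thalamus were set against the fit without the block. Of these, 540 kept the direction and side of the threshold they had in that fit, 55 passed it newly and 9 changed sign. That fit called 0 members, so no lost call could be counted. The 5 calls of the blocked fit are among the 55. The same 5 probe sets with the actin covariate, where they were not called, are among the 540. The sign changed for TF 220109_at, at -0.01 as reported, with 0 under quantile normalisation with or without the block and under the XIST and RPS4Y1 term, from -0.03 to 0.01 with an array left out, and to 0.04 with an array left out in the blocked fit. It changed for MBP 216567_at, at -0.02 without Ventral Thalamus replicate 2 in the blocked fit. Both lie near the lower end of the signal, where 7 of the 20 members had a mean below the median of all probe sets.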
